A study of Mus musculus with 8 samples.

Results

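Hematopoietic stem cells from mice labelled Huwe1 knockout with Vav-Cre were compared directly with those labelled Huwe1 knockout with Mx1-Cre. The comparison held 5 RNA-seq libraries, 2 of the Vav-Cre line and 3 of the Mx1-Cre line, chosen by genotype label from 8 libraries in the series. The other 3 libraries were labelled wild type and are given as the background. All cells were taken from mouse bone marrow, sorted on the phenotype Lin-Sca+Kit+CD48-CD150+ and lysed without culture. In the Vav-Cre group a conditional Huwe1 allele was deleted constitutively, and in the Mx1-Cre group it was deleted after induction. The labels name no Cre transgene or inducing agent in the wild type mice, list no treatment for any sample, and give no strain, age or time after induction. Constitutive and induced deletion therefore cannot be told apart from the Cre lines themselves, from the induction or from any difference in the mice. The labels number the libraries of a group but do not say that each came from a separate animal, so the p-values measure only how these libraries vary, which may be technical.

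HUWE1 is a large HECT-type ubiquitin ligase that marks proteins for degradation by the proteasome, among them MYC family members, MCL1 and p53. Vav-Cre is driven by a promoter that is active throughout the blood system from fetal life on, while Mx1-Cre is driven by a promoter that responds to interferon and is usually switched on in the adult by an interferon inducer. Stem cells deleted by Vav-Cre have therefore developed without the gene, whereas those deleted by Mx1-Cre lose it later. Hematopoietic stem cells divide rarely, and their identity rests on a set of transcription factors and surface receptors that includes MECOM, HLF, EPCR (from Procr) and the CD150 antigen used in the sort (from Slamf1).

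Gene-level Huwe1 counts did not check the knockout label. In CPM, the count of a gene relative to all counts of its library after TMM scaling, Huwe1 stood at 444, 399 and 412 for Mx1-Cre and at 445 and 490 for Vav-Cre, beside 434, 398 and 433 for wild type, with a difference of 0.16 ± 0.13 (log2, SE) between the lines. Reads outside the deleted part of the gene stay in such a count. Total counts were 28689765 to 33202926 per library. The spread between libraries, as a biological coefficient of variation, was 36.1% for Vav-Cre, 30.5% for Mx1-Cre and 21.2% for wild type. Across genes, Vav-Cre 1 correlated with the Mx1-Cre libraries at r = 0.956 to 0.960 and with Vav-Cre 2 at 0.954, so that it was no nearer to its own line. The first principal component of the 5 knockout libraries held 35.9% of the variance and ran from -23.4, -33.6 and -36.2 in Mx1-Cre over 17.8 in Vav-Cre 1 to 75.4 in Vav-Cre 2. Vav-Cre 2 thus stood farthest from the rest, and results that rest on it are given with each Vav-Cre library apart. In whole sorted populations fewer cells of a type and less RNA per cell cannot be told apart.

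Between the lines, 16 genes rose and 8 fell in Vav-Cre relative to Mx1-Cre among 14086 tested (edgeR quasi-likelihood test, Benjamini-Hochberg adjusted p below 0.05). This is 0.17% of tested genes, with 0.114% higher and 0.0568% lower. The genes that rose included the stem cell markers Fgd5 and Slamf1, the surface enzyme Entpd1 and the meiotic cohesin gene Rec8. Those that fell included the red cell membrane skeleton gene Add2 and the ion pump subunit gene Atp1b2. At an unadjusted p below 0.05, 1030 genes (7.31%) were higher and 839 (5.96%) lower in Vav-Cre. Both Vav-Cre libraries lay above all Mx1-Cre libraries for 1940 genes (13.8%) and below them for 1690 (12%), and the median difference over all tested genes was 0.01 on the log2 scale. The number called depended strongly on single libraries: it was 13, 5 and 3 without wild type 1, 2 and 3, 7 and 8 without Mx1-Cre 1 and 3, 13 without Vav-Cre 2, and 412 without Vav-Cre 1. With only the 5 knockout libraries in the fit 3 genes were called, and DESeq2 called 468, among them all 24.

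**Figure D1:**
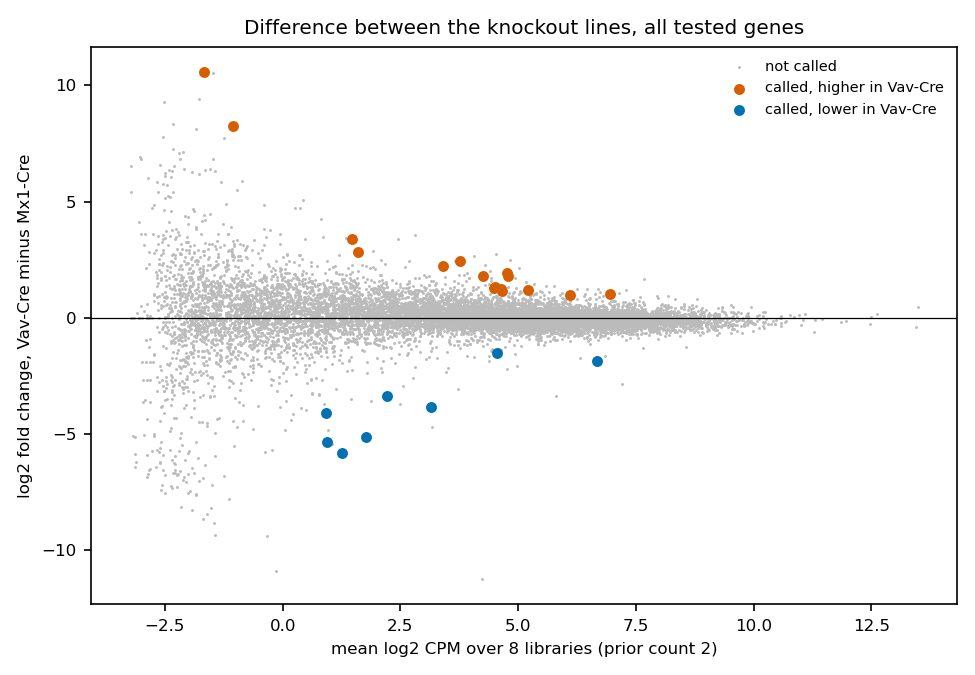
Difference between the lines (vertical axis, log2 fold change, Vav-Cre minus Mx1-Cre) against the mean log2 CPM over 8 libraries (horizontal axis) for the 14086 tested genes, 1 point per gene. The 16 genes called higher (orange) and the 8 called lower (blue) in Vav-Cre lie toward the edge of the grey cloud, which widens toward low levels.

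Among the 16 genes that rose, Fgd5 and Slamf1 belong to the stem cell identity list. Fgd5 encodes a guanine nucleotide exchange factor whose expression marks the stem cells of adult bone marrow. It lay at 3.24, 4.06 and 1.70 CPM in the Mx1-Cre libraries, at 17.2 and 15.2 in the Vav-Cre libraries and at 50, 59.1 and 59.4 in wild type. Both lines were thus below every wild type library, Mx1-Cre farther than Vav-Cre, and the lines did not overlap (5.40-fold, log2 2.43 ± 0.30, adjusted p = 0.0183 in edgeR). Slamf1, which encodes the CD150 antigen of the sort gate, lay at 49.0, 53.6 and 58.1 CPM in Mx1-Cre and at 105 and 108 in Vav-Cre. Wild type, at 62.8 to 68.4 CPM, lay between the lines (1.98-fold, log2 0.99 ± 0.14, adjusted p = 0.0346 in edgeR). Since CD150 was used to sort the cells, its level also depends on how the gate was set, which was not tested.

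Entpd1 and Serpinf1 followed Fgd5 in lying lowest in Mx1-Cre. Entpd1 encodes CD39, which breaks down extracellular ATP. Its levels were 5.03, 4.06 and 2.27 CPM in Mx1-Cre, 15.5 and 20.1 in Vav-Cre and 19.6 to 26.2 in wild type (4.68-fold, log2 2.23 ± 0.32, adjusted p = 0.0346), so that Vav-Cre 2 lay inside and Vav-Cre 1 just under the wild type range, and all Mx1-Cre libraries lay far below it. Serpinf1, which encodes the secreted factor PEDF, lay at 6.73, 4.28 and 4.90 CPM in Mx1-Cre, at 13.3 and 23.4 in Vav-Cre and at 58.1 to 85.7 in wild type. Its difference between the lines was 1.79 ± 0.29 (adjusted p = 0.0459), with both lines below wild type.

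For Rec8, unlike Fgd5, the Vav-Cre libraries lay above wild type. It encodes a cohesin subunit known from meiosis, and it was detected at 16.3, 16.8 and 20.5 CPM in Mx1-Cre, 51.0 and 74.4 in Vav-Cre and 19.7 to 28.9 in wild type. The Vav-Cre libraries stood above all others (3.51-fold, log2 1.81 ± 0.23, adjusted p = 0.0214). Fzd6, a Wnt receptor gene, was likewise highest in Vav-Cre, at 35.8 and 40.2 CPM against 15.3, 15.4 and 15.5 in Mx1-Cre and 19.9 to 25.5 in wild type (log2 1.31 ± 0.19). Mylip, which encodes a ubiquitin ligase for the LDL receptor, lay at 54.8 and 63.7 CPM in Vav-Cre and 24.2 to 29.8 in Mx1-Cre. Trim30b, of the TRIM family, lay at 38.4 and 47.7 CPM in Vav-Cre and 18.5 to 20.9 in Mx1-Cre. For Fzd6, Mylip and Trim30b the Mx1-Cre libraries were below and the Vav-Cre libraries above every wild type library.

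Gda, Arhgap26 and Pik3r1 were further called genes of higher level that rose. Gda, which encodes guanine deaminase, lay at 32.3 and 78.6 CPM in Vav-Cre and at 13.3 to 15.2 in Mx1-Cre. Arhgap26, a GTPase-activating protein gene, lay at 37.6 and 30.7 against 11.8 to 15.3. Pik3r1 encodes the regulatory subunit of phosphoinositide 3-kinase. It lay at 150 and 203 CPM in Vav-Cre, 83.4, 96.8 and 80.7 in Mx1-Cre and 132 to 149 in wild type (2.03-fold, log2 1.02 ± 0.16, adjusted p = 0.0440).

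Of the 16 genes that rose, the Mx1-Cre libraries all lay below all wild type libraries for 14. The Vav-Cre libraries lay above all wild type libraries for 9, below them for 3 and overlapped them for 4. Among the 8 that fell, the Vav-Cre libraries lay below all wild type libraries for 8, and the Mx1-Cre libraries lay above them for 4, overlapped them for 3 and lay below for 1. Over the 24 genes the fitted changes against wild type had opposite signs in the lines for 16. They had the same sign with the larger change in Mx1-Cre for 6, and with the larger change in Vav-Cre for 2. Both changes use the same wild type libraries, and the 24 genes were picked for the difference between the lines, so these counts describe the called genes and give no test of opposite responses.

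**Figure D2:**
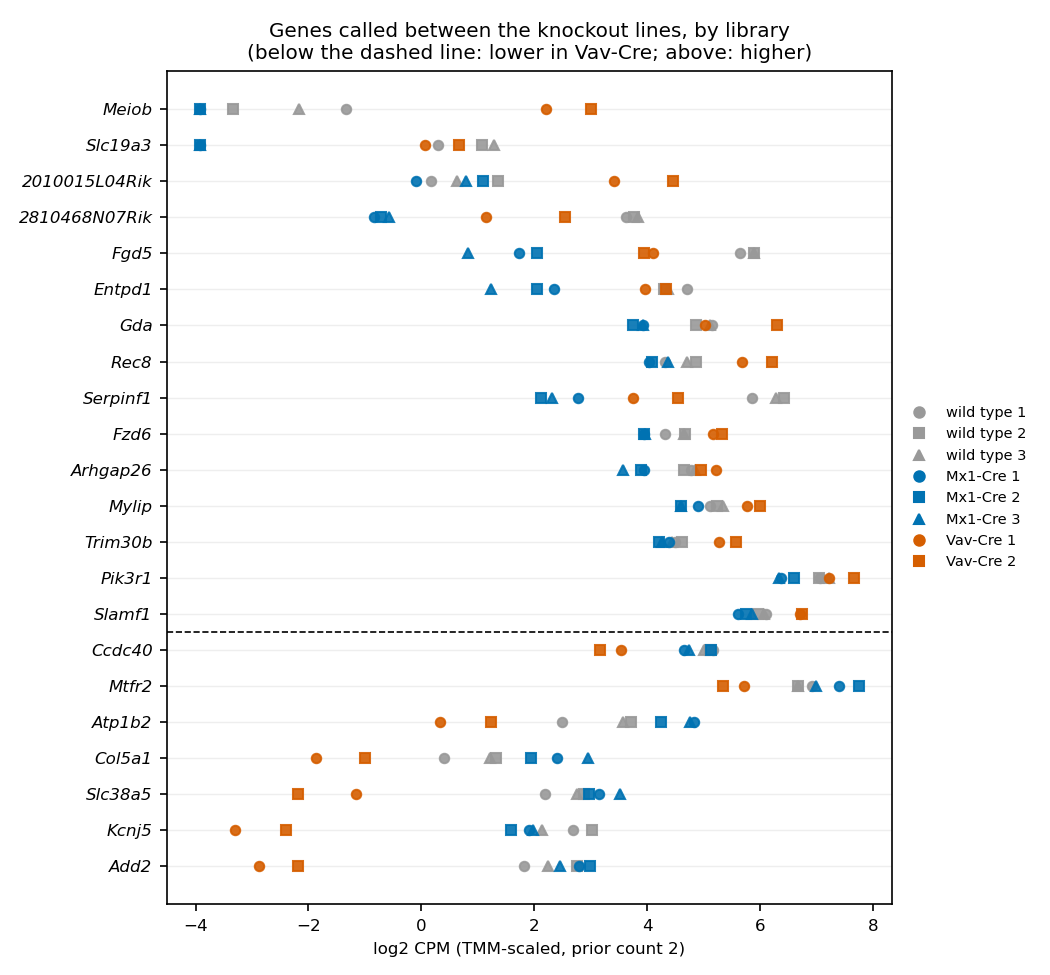
Level of 22 of the 24 called genes in each library (horizontal axis, log2 CPM with a prior count of 2, 1 row per gene, grey for wild type, blue for Mx1-Cre, orange for Vav-Cre, marker shape for the library number). The orange and blue markers are apart in every row, and grey markers lie nearer to orange in some rows (Entpd1, Serpinf1) and nearer to blue in others (Rec8, Add2).

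The genes that fell in Vav-Cre were led by Atp1b2 among those of higher level. It encodes a beta subunit of the sodium-potassium pump and lay at 28.4, 18.8 and 27.3 CPM in Mx1-Cre, at 1.19 and 2.29 in Vav-Cre and at 5.58, 13.1 and 11.8 in wild type. Wild type lay between the lines (14.2-fold lower in Vav-Cre, log2 -3.82 ± 0.47, adjusted p = 0.0183). Mtfr2, which encodes a regulator of mitochondrial fission, lay at 169, 215 and 127 CPM in Mx1-Cre, 52.1 and 40.7 in Vav-Cre and 102 to 122 in wild type (3.67-fold lower, log2 -1.88 ± 0.23). Ccdc40, needed for the assembly of motile cilia, lay at 25.1, 35.2 and 26.8 CPM in Mx1-Cre and at 11.5 and 8.89 in Vav-Cre. Its wild type level of 32 to 35.6 CPM was near that of Mx1-Cre, unlike for Atp1b2.

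Further called genes had a mean level under the limit for named genes, and they are named here with their values known. Add2 encodes beta-adducin of the red cell membrane skeleton, and its counts were 222, 217 and 152 in Mx1-Cre but 2 and 5 in Vav-Cre (6.86, 7.87 and 5.39 against 0.0701 and 0.155 CPM, with 3.47 to 6.73 in wild type). Slc38a5, a glutamine transporter gene, had 284, 215 and 322 counts against 11 and 5, and Kcnj5, a potassium channel gene, had 119, 81 and 109 against 1 and 4. In these 3 genes the Vav-Cre libraries lay far below all others. The Mx1-Cre libraries overlapped wild type for Add2, lay above it for Slc38a5 and below it for Kcnj5. Col5a1, a collagen gene, had 169, 104 and 217 counts against 6 and 14. Add2, Slc38a5 and Kcnj5 were called whichever library was left out, and no other called gene was.

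Meiob and Slc19a3 had no count in any Mx1-Cre library. Meiob encodes a single-stranded DNA-binding protein of meiotic recombination. It had 130 and 257 counts in Vav-Cre (4.55 and 7.96 CPM) and 10, 1 and 5 in wild type, which makes it at least 61.0-fold higher in Vav-Cre than the level of 3 counts per library. For Slc19a3, a thiamine transporter gene, the 28 and 49 counts in Vav-Cre were at least 12.2-fold above that level, and wild type lay at 1.16 to 2.36 CPM beside 0.981 and 1.52 in Vav-Cre. So for Meiob the Vav-Cre libraries stood apart from both other groups, and for Slc19a3 the Mx1-Cre libraries did. The unnamed transcripts 2010015L04Rik (10.6 and 21.9 CPM in Vav-Cre, 0.865 to 2.07 in Mx1-Cre) and 2810468N07Rik (2.14 and 5.76 against 0.494 to 0.603) also rose. Libraries were unstranded, so reads of an overlapping antisense transcript would be counted with each of these genes.

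The stem cell identity genes lay mostly higher in Vav-Cre than in Mx1-Cre. Of 35 members tested, 2 rose (Fgd5 and Slamf1) and 0 fell, against 0.114% and 0.0568% of all tested genes. A positive fold was found for 31, and the median difference was 0.62 on the log2 scale beside 0.01 over all tested genes. Both Vav-Cre libraries lay above all Mx1-Cre libraries for 14 members (40%, against 13.8% of all tested genes) and below them for 1. Relative to the mean of the 5 knockout libraries the list's median level was -0.17, -0.18 and -0.28 in Mx1-Cre, 0.16 and 0.48 in Vav-Cre and 0.29 to 0.36 in wild type. The Vav-Cre libraries were thus on either side of wild type, with every Mx1-Cre library below both. The list's median was 0.66 without Vav-Cre 1 and 0.35 without Vav-Cre 2.

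Among members that did not pass, Procr, which encodes the endothelial protein C receptor, lay at 60.4 and 73.7 CPM in Vav-Cre, 37.1, 40.4 and 33 in Mx1-Cre and 58.4 to 70.6 in wild type (log2 0.86 ± 0.17, adjusted p = 0.0817). The Vav-Cre libraries lay within or next to the wild type range and the Mx1-Cre libraries below it. Ifitm1, an interferon-inducible membrane protein gene, lay at 489 and 224 CPM against 117, 98.6 and 115 (1.69 ± 0.31, adjusted p = 0.0691), with wild type at 189 to 326. Mecom, a zinc finger factor gene needed for stem cell maintenance, lay at 269 and 225 CPM against 136, 197 and 150, with wild type at 212 to 246 (0.62 ± 0.17). Its lines did not overlap. Vwf, the von Willebrand factor gene that marks platelet-biased stem cells, separated the Vav-Cre libraries, at 56.9 in Vav-Cre 1 and 167 in Vav-Cre 2 against 60.7, 35.5 and 67.0 in Mx1-Cre. Ly6a, which encodes the Sca-1 antigen of the gate, did the same, at 50.6 and 144 CPM against 42.4 to 60.7.

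The other antigens of the sort gate did not pass the test. Kit, whose product was selected for in the sort, ranged from 982 to 2340 CPM over the Mx1-Cre libraries and lay at 1770 and 1630 in Vav-Cre (0.08 ± 0.30). Cd48, whose product was selected against, lay at 15.2 and 15.4 CPM in Vav-Cre, 21.3 ± 1.8 (SD, n = 3) in Mx1-Cre and 14.8 to 16.1 in wild type (-0.48 ± 0.20, adjusted p = 0.335).

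The HOX A and B genes, homeobox factors expressed in stem and progenitor cells, had 14 members tested of 21. None was called, 11 had a positive fold, and the median difference was 0.56, or 0.70 without Vav-Cre 1 and 0.34 without Vav-Cre 2. Vav-Cre lay above Mx1-Cre in every library for 7 members (50%, against 13.8% of all tested genes) and below for 0 (against 12%). Hoxb5, a factor with expression restricted to long-term stem cells, lay at 5.64 and 14.6 CPM in Vav-Cre, 3.24, 3.23 and 4.29 in Mx1-Cre and 7.53 to 10.2 in wild type (1.5 ± 0.39, adjusted p = 0.171). Hoxb3 lay at 7.53 and 28.2 CPM against 4.53 to 6.95, so that most of its difference came from Vav-Cre 2. Hoxa7 lay at 27.6 and 35.5 against 19.9 to 23.4 CPM.

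Genes of the cell cycle lay lower in Vav-Cre than in Mx1-Cre, and none was called. In the G1/S and DNA replication list, 46 of 48 members had a negative fold, with a median of -0.48, and in the G2/M and mitosis list 50 of 50, with a median of -0.63. E2F factors bind the promoters of many G1/S genes, and in G2/M promoters CCAAT boxes and elements read as TTTGAA or TTCGAA are known. Since the members of both lists leaned the same way, promoters of 4 members whose lines did not overlap are shown. Each is 300 bases of RefSeq sequence (GRCm38.p6), 250 before and 50 after the gene's start, from Pold1 at chr7:44548766-44549065 on the minus strand, Mcm5 at chr8:75109259-75109558 on the plus strand, Mcm7 at chr5:138171834-138172133 on the minus strand and Plk1 at chr7:122159185-122159484 on the plus strand. They are the members of smallest p that hold the letters searched, which is why Mcm7 is named. Capitals mark TTTCCCGC or TTTGGCGC (E2F-type, read here on the other strand) in the first 3 and CCAAT and TTTGAA in Plk1.
Pold1: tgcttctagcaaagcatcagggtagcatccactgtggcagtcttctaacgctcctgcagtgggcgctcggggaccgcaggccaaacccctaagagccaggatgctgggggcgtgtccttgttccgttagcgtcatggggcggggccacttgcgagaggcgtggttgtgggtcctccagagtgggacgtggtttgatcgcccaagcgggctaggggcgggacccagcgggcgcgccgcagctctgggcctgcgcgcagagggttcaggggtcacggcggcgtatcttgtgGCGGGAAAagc
Mcm5: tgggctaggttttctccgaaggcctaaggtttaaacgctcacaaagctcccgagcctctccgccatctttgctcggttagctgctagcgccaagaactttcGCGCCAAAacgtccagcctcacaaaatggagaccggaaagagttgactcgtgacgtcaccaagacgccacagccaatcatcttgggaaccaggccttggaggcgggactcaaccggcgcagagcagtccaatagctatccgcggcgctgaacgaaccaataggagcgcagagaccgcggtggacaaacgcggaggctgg
Mcm7: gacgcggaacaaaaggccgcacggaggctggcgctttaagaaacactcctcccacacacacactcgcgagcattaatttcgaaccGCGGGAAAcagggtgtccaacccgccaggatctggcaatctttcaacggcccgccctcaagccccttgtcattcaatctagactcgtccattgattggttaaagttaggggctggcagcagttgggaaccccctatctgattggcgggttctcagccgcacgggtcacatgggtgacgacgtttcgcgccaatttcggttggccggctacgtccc
Plk1: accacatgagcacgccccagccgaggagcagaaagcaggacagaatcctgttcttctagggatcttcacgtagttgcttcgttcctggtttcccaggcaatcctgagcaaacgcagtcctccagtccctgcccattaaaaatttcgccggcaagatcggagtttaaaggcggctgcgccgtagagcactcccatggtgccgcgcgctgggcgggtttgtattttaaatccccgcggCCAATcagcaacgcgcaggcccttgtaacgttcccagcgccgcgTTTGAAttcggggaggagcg
A gene was counted if any of its promoters held the letters. Of 40 G1/S members with a promoter sequence, 15 held the E2F-type letters (37.5%, against 1.8% of 27025 genes with promoters of the same length, tested or not). TTTGAA or TTCGAA on either strand was found for 31 of 42 G2/M members with a promoter (73.8%, against 21.7%) and CCAAT for 33 of 42 (78.6%, against 41.1%). Within the lists the median difference was -0.43 with and -0.50 without the E2F-type letters, -0.64 with and -0.62 without CCAAT, and -0.66 with and -0.57 without TTTGAA or TTCGAA, none of which was tested. These matches describe the letters in the window and show no binding.

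The 2 Vav-Cre libraries differed from each other in these genes. The G2/M list's median level, relative to the mean of the knockout libraries, was 0.34, 0.11 and 0.39 in Mx1-Cre, 0.07 in Vav-Cre 1, -0.93 in Vav-Cre 2 and -0.26 to -0.22 in wild type. Vav-Cre 1 therefore lay above wild type, close to Mx1-Cre 2, and Vav-Cre 2 lay below every other library. For 39 of the 50 members all Mx1-Cre libraries lay above all wild type libraries. Vav-Cre 2 was below all wild type libraries for 46 members and Vav-Cre 1 for 3. Below all Mx1-Cre libraries lay Vav-Cre 2 for 47 members (94%, against 28.1% of all tested genes) and Vav-Cre 1 for 23 (46%, against 22.1%). Both Vav-Cre libraries did so for 23 members (46%, against 12%). The list's median was -1.22 without Vav-Cre 1 and -0.21 without Vav-Cre 2.

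The G1/S list showed the same order of libraries with smaller steps. Its median level was 0.24, 0.11 and 0.25 in Mx1-Cre, -0.06 in Vav-Cre 1, -0.60 in Vav-Cre 2 and -0.19 to -0.15 in wild type. Both Vav-Cre libraries lay below all Mx1-Cre libraries for 26 of 48 members (54.2%, against 12% of all tested genes). Taken singly, Vav-Cre 1 did so for 60.4% of members and Vav-Cre 2 for 85.4%, against 22.1% and 28.1% of all tested genes. Without Vav-Cre 1 the median was -0.82 and without Vav-Cre 2 it was -0.27. The negative folds of both cell cycle lists thus kept their sign in each Vav-Cre library taken alone, and their size rested mainly on Vav-Cre 2.

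**Figure D3:**
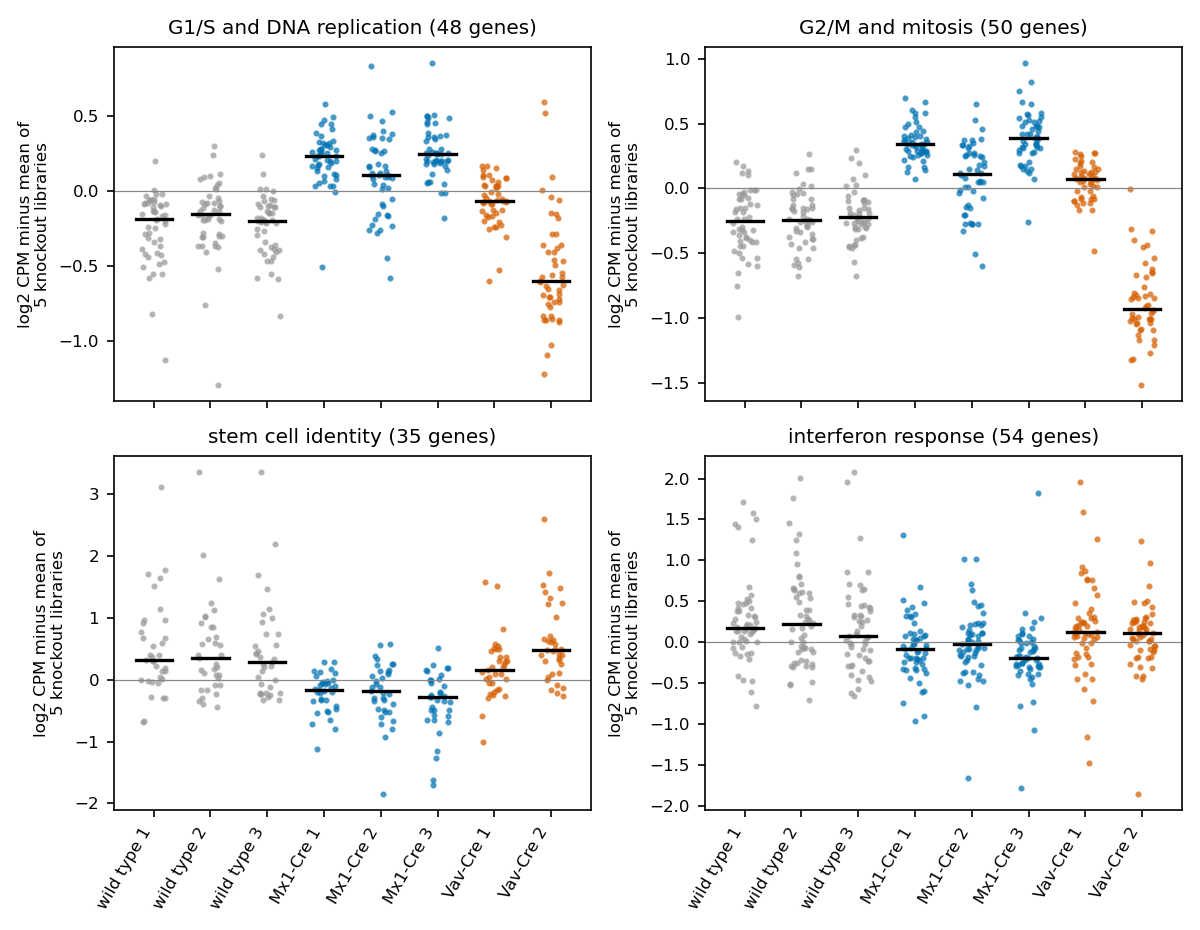
Levels of the members of 4 lists in each library (vertical axis, log2 CPM minus the gene's mean over the 5 knockout libraries, 1 point per gene, black bars for medians, points spread sideways for visibility). In the G2/M panel the medians run from 0.39 in Mx1-Cre 3 to -0.93 in Vav-Cre 2, with wild type between, and in the stem cell panel the Mx1-Cre medians lie lowest.

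Single members show both patterns. Fen1, a flap nuclease gene of lagging strand synthesis, lay at 355, 383 and 298 CPM in Mx1-Cre, 223 and 147 in Vav-Cre and 202 to 256 in wild type (log2 -0.90 ± 0.20, adjusted p = 0.133). Pold1, the catalytic subunit gene of DNA polymerase delta, lay at 177, 156 and 187 CPM against 124 and 104, with wild type at 109 to 127. Mcm5 lay at 603, 629 and 575 against 443 and 272 CPM, Mcm7 at 340, 308 and 333 against 274 and 211, and Mcm2 at 436, 344 and 427 against 302 and 231. All 3 encode subunits of the replicative helicase. For Pold1 and Mcm2 Vav-Cre 1 lay in or near the wild type range and all Mx1-Cre libraries above it. Plk1, a mitotic kinase gene, lay at 64.1, 53.5 and 64.0 CPM in Mx1-Cre, 38.0 and 17.0 in Vav-Cre and 38.3 to 46.9 in wild type (-1.14 ± 0.29, adjusted p = 0.169). Mki67, which encodes the proliferation antigen Ki-67, lay at 962 CPM in Vav-Cre 1, within the Mx1-Cre range of 796 to 1100, and at 465 in Vav-Cre 2, below the wild type range of 576 to 646.

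Inhibitors of the cycle lay higher in Vav-Cre or did not separate the lines, and none was called. Cdkn1c, which encodes the quiescence-associated inhibitor p57, lay at 10.3 and 11.5 CPM in Vav-Cre, 5.71, 4.57 and 5.11 in Mx1-Cre and 10.4 to 19.8 in wild type (1.08 ± 0.30, adjusted p = 0.182). Ndn, an imprinted gene that restrains growth, lay at 12.2 and 8.49 CPM against 4.33 to 6.93, both lines below the wild type range of 21.6 to 31.5. Cdkn1a (p21) lay at 6.55 and 7.50 CPM in Vav-Cre, inside the range of 6.35 to 21.5 in Mx1-Cre, with wild type at 1.84 to 3.39. Cdkn1b (p27) overlapped between the lines (0.30 ± 0.29). Of the 18 tested genes in the inhibitor and quiescence list 13 had a positive fold (median 0.17, or 0.20 without Vav-Cre 1 and 0.16 without Vav-Cre 2) and none was called. Of 17 tested imprinted growth regulators 10 did (median 0.16, or 0.04 without Vav-Cre 1 and 0.47 without Vav-Cre 2), again with no call. Cdkn1c and Ndn are in this list too. Both Vav-Cre libraries lay above all Mx1-Cre libraries for 5 of its members (29.4%, against 13.8% of all tested genes). They lay below for 2 (11.8%, against 12%), opposite to Cdkn1c and Ndn.

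Lists that accompany growth and division lay lower in Vav-Cre as well, with no gene called in any of them. DNA damage and repair genes had a negative fold for 46 of 51 members (median -0.34), ribosome biogenesis for 50 of 51 (-0.27), proteasome for 37 of 38 (-0.19) and oxidative phosphorylation for 58 of 66 (-0.19). The last pair rested mostly on Vav-Cre 2: without it the medians were -0.098 and -0.044, and without Vav-Cre 1 they were -0.34 and -0.35. For oxidative phosphorylation both Vav-Cre libraries lay below all Mx1-Cre libraries for 7 of 66 members (10.6%, under the 12% of all tested genes), and the median level of Vav-Cre 1, 0.05, was above that of Mx1-Cre 1 and 2 (-0.04 and -0.12). In ribosome biogenesis the 2 Vav-Cre libraries were alike: its median level was -0.12 and -0.20 against 0.04, 0.10 and 0.18 in Mx1-Cre and 0.08 to 0.16 in wild type. Both lay below all Mx1-Cre libraries for 26 of 51 members (51%, against 12%). Rrp12, a gene of ribosome export, lay at 20.4 and 20.6 CPM in Vav-Cre, 30.6 to 38.3 in Mx1-Cre and 37.5 to 53.9 in wild type. Bop1, needed for the large subunit, lay at 52.8 and 62.8 against 84.5 to 99.4 CPM (-0.70 ± 0.17, adjusted p = 0.148). In the repair list the Vav-Cre libraries split, at 0.01 and -0.38, with Mx1-Cre at 0.12 to 0.15 and a median of -0.56 without Vav-Cre 1 and -0.15 without Vav-Cre 2. The cytosolic ribosomal protein genes themselves had positive folds for 54 of 71 members with a median of 0.09, which turned to -0.04 without Mx1-Cre 2.

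Interferon response genes were mostly higher in Vav-Cre. Of 54 tested none was called, 40 had a positive fold, and the median was 0.20. Vav-Cre lay above Mx1-Cre in all libraries for 16 members (29.6%, against 13.8%) and below for 3. The list's median level was -0.08, -0.02 and -0.19 in Mx1-Cre, 0.13 and 0.11 in Vav-Cre and 0.08 to 0.22 in wild type, and without Vav-Cre 1 or Vav-Cre 2 the difference was 0.17 or 0.18. The 2 Vav-Cre libraries thus agreed on this list and lay within the wild type range. The letters GAAANNGAA, read on either strand as an interferon-type element, were found for 23 of 38 members with a promoter (60.5%, against 9.76% of all genes with a promoter). The median difference was 0.21 with and 0.09 without them, not tested. Rsad2, the antiviral viperin gene with the smallest p in the list, is shown with these letters in capitals, read on the other strand (RefSeq, GRCm38.p6, chr12:26456403-26456702 on the minus strand).
Rsad2: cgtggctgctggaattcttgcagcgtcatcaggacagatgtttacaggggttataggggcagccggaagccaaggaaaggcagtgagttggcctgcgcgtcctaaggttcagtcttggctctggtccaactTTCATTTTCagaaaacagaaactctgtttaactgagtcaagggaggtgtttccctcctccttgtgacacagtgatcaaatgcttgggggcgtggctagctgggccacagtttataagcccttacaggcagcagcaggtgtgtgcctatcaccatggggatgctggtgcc
Rsad2 lay at 36.8 and 37.6 CPM in Vav-Cre, 9.91, 21.5 and 9.12 in Mx1-Cre and 16.8 to 31.7 in wild type (1.46 ± 0.37, adjusted p = 0.168). Ifit1, another antiviral effector gene, lay at 33.1 and 22.3 CPM against 15.9, 16.3 and 11, with wild type at 26.5 to 39.5 (0.94 ± 0.26). Mx2 lay at 6.27 and 4.15 against 2.19 to 3.01 CPM. Ifit1 and Mx2 were thus lowest in all Mx1-Cre libraries. Ifi204, a DNA sensor gene of an interferon-inducible family chosen after its values were seen, lay at 21.8 and 18.4 CPM in Vav-Cre and at 0.099 to 1.51 in all other libraries (adjusted p = 0.0660).

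**Figure D4:**
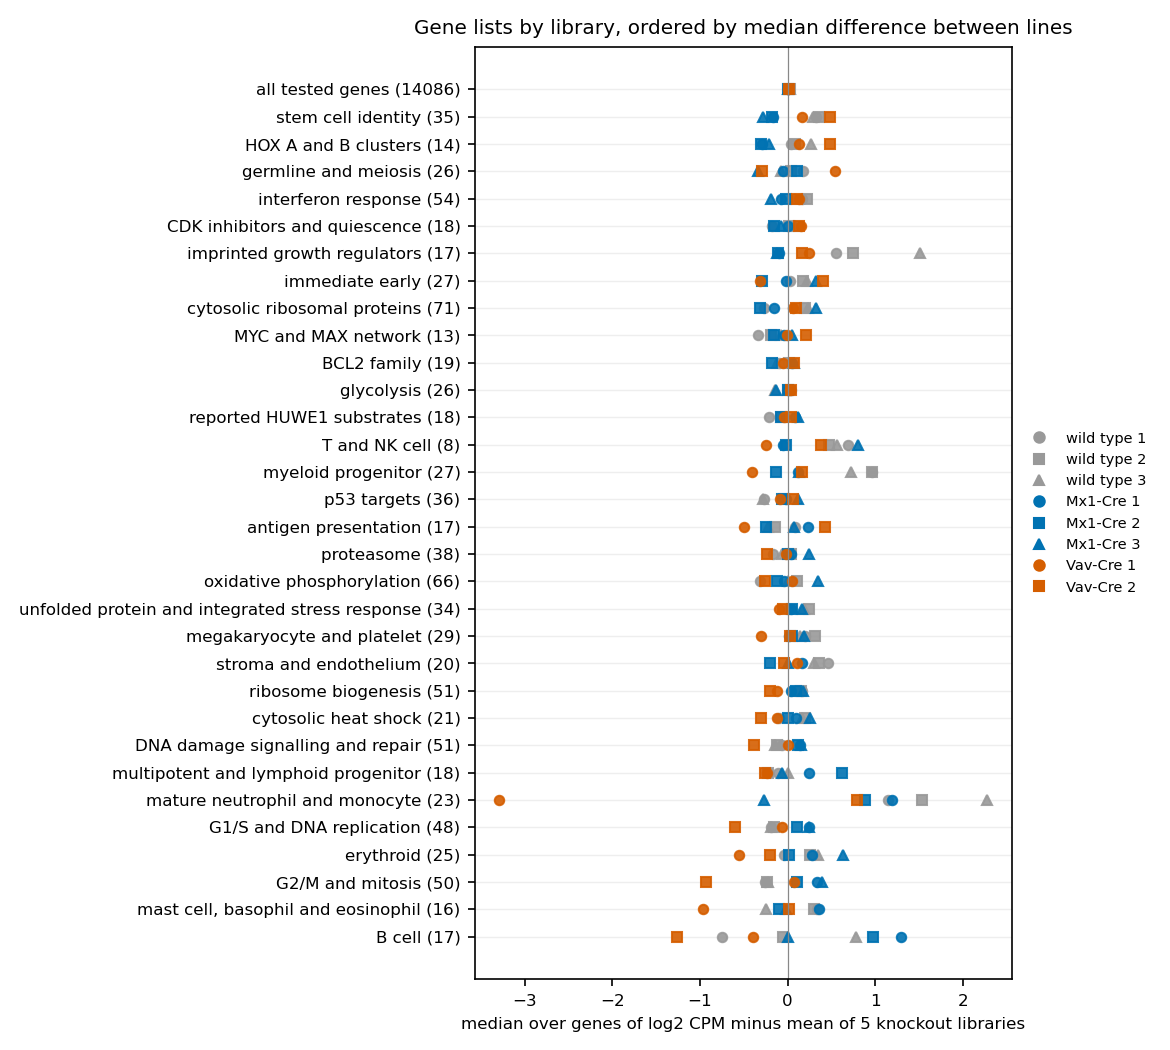
Median level of each list in each library (horizontal axis, log2 CPM minus the gene's mean over the 5 knockout libraries, number of tested genes in parentheses, colours and markers as for the called genes). Lists are ordered by their difference between the lines, the medians over all tested genes lie at 0.00 to 0.03, and the neutrophil list stands out with -3.29 in Vav-Cre 1.

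Of 25 tested erythroid genes, 2 were among the 8 that fell, including Add2, against 0.0568% of all tested genes called lower. A negative fold was found for 20 of the 25, and the median was -0.62, or -0.58 without Vav-Cre 1 and -0.93 without Vav-Cre 2. The list's median level was -0.56 and -0.20 in Vav-Cre, 0.28, 0.02 and 0.63 in Mx1-Cre and -0.04 to 0.35 in wild type. Both Vav-Cre libraries lay below all Mx1-Cre libraries for 8 members (32%, against 12%) and above for 2. Rhd and Ermap, which encode red cell surface proteins, lay at 1.05 and 2.05 against 6.89 to 12.8 CPM (adjusted p = 0.0590) and at 0 and 2.23 against 26.6 to 34.5 CPM (adjusted p = 0.0817). Gata1, the erythroid and megakaryocytic transcription factor gene, lay at 56.8 and 58.2 CPM in Vav-Cre, 101, 90.9 and 132 in Mx1-Cre and 98.5 to 123 in wild type (-0.91 ± 0.18, adjusted p = 0.0949). Car1, a carbonic anhydrase gene of red cells chosen after its values were seen, lay at 1.58 and 26.2 CPM against 85.9 to 208. The list's summed level, most of it from Car2, was 7260 and 5640 CPM in Vav-Cre, 7240 to 8550 in Mx1-Cre and 5920 to 6780 in wild type, and 4 globin genes of the list had 0 counts in all 8 libraries. The part of a changed share of erythroid progenitors in these values was not tested.

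Markers of other blood cells also differed between libraries. The neutrophil and monocyte list had a median level of -3.29 in Vav-Cre 1, 0.79 in Vav-Cre 2, 1.19, 0.89 and -0.27 in Mx1-Cre and 1.15 to 2.28 in wild type. Its summed level was 561 and 789 CPM in Vav-Cre, 506 to 1230 in Mx1-Cre and 756 to 1640 in wild type. Of 23 tested members 16 had a negative fold and none was called, and the median of -0.44 became -0.14 without Vav-Cre 1 and -4.46 without Vav-Cre 2. Retnlg and Mmp8, genes of neutrophil granules and secretions, were at 0 and 0.248 and at 0.350 and 0 CPM in Vav-Cre, with 4.47 to 7.66 and 3.09 to 7.35 in Mx1-Cre. In contrast S100a9 lay at 1.09 in Vav-Cre 1 and 31.8 in Vav-Cre 2 beside 12.6 to 36.9 CPM in Mx1-Cre. The low neutrophil signal was therefore a feature of Vav-Cre 1 for most of the list and of both libraries for a few genes.

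The B cell list had a negative fold for 14 of 17 tested members, with a median of -2.08, or -1.53 with members that had no count in a group set to their bound. Without Vav-Cre 1 the median was -3.56 and without Vav-Cre 2 it was -1.93. Both Vav-Cre libraries lay below all Mx1-Cre libraries for 7 members (41.2%, against 12% of all tested genes) and above for 1 (5.88%, against 13.8%). The list's summed level was 112 and 248 CPM in Vav-Cre, 199 to 243 in Mx1-Cre and 330 to 521 in wild type. By this sum Vav-Cre 2 was highest and Vav-Cre 1 lowest of the knockout libraries, all of them below wild type. Ebf1, an early B cell factor gene, had 136, 98 and 5 counts in Mx1-Cre and 0 in both Vav-Cre libraries. It was not called (adjusted p = 0.187 in edgeR). Its bound of 26.7-fold lower is taken from the Mx1-Cre mean. That mean rests on Mx1-Cre 1 and 2, since Mx1-Cre 3 was close to the level of 3 counts. Cd79a lay at 0.841 and 0.279 against 2.31 to 4.06 CPM. Cr2, a complement receptor gene, went the other way, at 4.17 and 7.72 CPM against 2.34 to 3.24 (1.03 ± 0.38, adjusted p = 0.281). Pax5 was not tested, with at most 10 counts in any library. In the multipotent and lymphoid progenitor list 13 of 18 members had a negative fold (median -0.42, or -0.36 without Vav-Cre 1 and -0.52 without Vav-Cre 2). Flt3, the receptor gene of multipotent progenitors, overlapped between the lines (0.32 ± 0.37).

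Megakaryocyte genes gave a median of -0.25 over 29 tested members, with Slamf1 as the only call. Without Vav-Cre 1 the median was 0.04 and without Vav-Cre 2 it was -0.44, so the median gives no direction for the line. Both Vav-Cre libraries lay below all Mx1-Cre libraries for 8 members (27.6%, against 12% of all tested genes). They lay above for 3 (10.3%, against 13.8%). Pf4, the platelet factor 4 gene, lay at 86.6 and 108 CPM in Vav-Cre, 187, 140 and 396 in Mx1-Cre and 241 to 395 in wild type (-1.31 ± 0.39, adjusted p = 0.209). F2rl2, a thrombin receptor gene, lay at 17.4 and 16.8 against 31.9 to 34.2 CPM. So Pf4 and F2rl2 were lower in Vav-Cre while Vwf, of the same list, was higher in Vav-Cre 2. Myeloid progenitor genes had a median of -0.02, or -0.004 without Vav-Cre 1 and -0.47 without Vav-Cre 2, with Mpo at 67.9 and 72 CPM in Vav-Cre, 70.2 to 128 in Mx1-Cre and 215 to 367 in wild type, and Elane at 13.5 and 40.3 against 5.33 to 33.4 CPM. Of 24 T and NK cell markers 8 were tested, with a summed level of 85.4 to 197 CPM over the 8 libraries and no call. Tbx21 had 0 counts in every library and Cd3e had 1 count in all. Cd247, a T cell receptor chain gene, lay at 2.45 and 5.45 CPM in Vav-Cre and 1.51 to 2.03 in Mx1-Cre, Klrb1c at 3.75 and 7.07 against 0.461 to 3.3, and the chemokine gene Ccl5 at 1.26 and 0.403 against 1.67 to 6.5. Gzmb, a cytotoxic granule protease gene, had 208 counts in Vav-Cre 2, 0 in Vav-Cre 1 and at most 22 in any other library. The stroma and endothelium list had a median of -0.26, or -0.05 with members without counts at their bound, with no call. Without Vav-Cre 1 its median was -0.094 and without Vav-Cre 2 it was -0.052, and its sign changed in 6 alternative settings. The part of other cell types in the differences between the lines was not tested.

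The mast cell and basophil list also split the Vav-Cre line. Fcer1a, the gene for the IgE receptor alpha chain, lay at 2.00 CPM in Vav-Cre 1 and 209 in Vav-Cre 2, at 7.01, 14.9 and 7.49 in Mx1-Cre and at 0 to 0.231 in wild type. It was above wild type in all 5 knockout libraries, and the fold between the lines (3.43 ± 1.14) turned to -2.29 without Vav-Cre 2. Cpa3, the mast cell carboxypeptidase gene, lay at 14.3 and 25.2 CPM in Vav-Cre, 16.6 to 25.5 in Mx1-Cre and 8.88 to 10 in wild type (0.01 ± 0.29). The list's median was -0.83 over 16 tested members, or -0.03 without Vav-Cre 1 and -1.50 without Vav-Cre 2. Not all members split in this way. Both Vav-Cre libraries lay below all Mx1-Cre libraries for 3 (18.8%, against 12% of all tested genes), Gata1 among them. They lay above for 1 (6.25%, against 13.8%).

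Of 18 tested genes of reported HUWE1 substrates none was called, 9 had a positive fold, and the median was 0.02, or 0.08 without Vav-Cre 1 and -0.16 without Vav-Cre 2. Both Vav-Cre libraries lay below all Mx1-Cre libraries for 4 members (22.2%, against 12%) and above for 1. Chek1, a checkpoint kinase gene, lay at 92.4 and 62 CPM in Vav-Cre and 105 to 118 in Mx1-Cre (-0.53 ± 0.18, adjusted p = 0.245). Cdc6, a replication licensing gene, lay at 104 and 56.4 against 114 to 136 CPM, and Topbp1, of replication checkpoint signalling, at 296 and 243 against 303 to 366. These 3 genes had no overlap between the lines, and Cdc6 is also in the G1/S list. Mycn lay at 198 and 199 CPM in Vav-Cre, 125, 87.5 and 145 in Mx1-Cre and 91.1 to 117 in wild type (0.74 ± 0.20, adjusted p = 0.182), so the Vav-Cre libraries were above all others. Myc lay at 550 and 687 CPM against 670 to 822, overlapping (-0.24 ± 0.17). Mcl1, which encodes a survival factor of the BCL2 family, lay at 180 and 237 CPM against 121 to 213, and Trp53 at 580 and 470 against 559 to 614. The MYC and MAX network had a median of 0.09 over 13 members, or 0.23 without Vav-Cre 1 and 0.045 without Vav-Cre 2. RNA does not measure the amount of these proteins, on which the ligase acts.

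Targets of p53 had a median of -0.02 (-0.006 without Vav-Cre 1, -0.113 without Vav-Cre 2) over 36 tested members, 16 of them with a positive fold, and none was called. Zmat3, a p53 target that regulates splicing, lay at 34.6 and 64.9 CPM in Vav-Cre, 53, 36.1 and 49.3 in Mx1-Cre and 8.63 to 12.4 in wild type. It stood well above wild type in both lines and overlapped between them (0.11 ± 0.28). BCL2 family genes had a median of 0.05 over 19 members (0.036 without Vav-Cre 1, -0.086 without Vav-Cre 2) and glycolysis genes 0.04 over 26 (-0.011 and -0.002). Of 34 genes of the unfolded protein and integrated stress response 23 had a negative fold (median -0.22, or -0.12 without Vav-Cre 1 and -0.17 without Vav-Cre 2). Phgdh and Asns, enzymes of serine and asparagine synthesis, lay at 138 and 112 against 191 to 211 CPM and at 126 and 94.4 against 186 to 221 CPM (adjusted p = 0.0968 for each). Cytosolic heat shock genes had a negative fold for 18 of 21 members (median -0.31, or -0.44 without Vav-Cre 1 and -0.22 without Vav-Cre 2). Hsph1, a heat shock protein gene, lay at 47.6 and 41.6 CPM against 77.7 to 122, with wild type at 94.2 to 193. Of the heat shock members 7 lay below all Mx1-Cre libraries in both Vav-Cre libraries (33.3%, against 12% of all tested genes). The other way, 2 lay above them (9.52%, against 13.8%).

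Immediate early and antigen presentation genes took opposite signs in the 2 Vav-Cre libraries. Immediate early genes, which respond within minutes to signals and to handling, had a median level of -0.31 in Vav-Cre 1 and 0.40 in Vav-Cre 2, beside -0.02, -0.29 and 0.33 in Mx1-Cre. The difference between the lines was 0.44 without Vav-Cre 1 and -0.45 without Vav-Cre 2. Vav-Cre 1 was below Vav-Cre 2 for 26 of 27 members. Zfp36, which encodes an mRNA decay factor, lay at 123 and 259 CPM against 118 to 140 in Mx1-Cre. Antigen presentation genes lay at -0.50 and 0.43, and H2-Ab1, a class II gene, at 11.5 and 40.1 CPM against 24.1 to 42.4. Their difference was 0.28 without Vav-Cre 1 and -0.59 without Vav-Cre 2, so neither list gives a direction for the line.

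Several genes of higher level were nearly on or off within a line. Rpl29 had 0.631 CPM in Vav-Cre 1 and 36.8 in Vav-Cre 2, and Rps3a 23.7 CPM in Mx1-Cre 1 beside 519 and 744 in the other two Mx1-Cre libraries. Both encode ribosomal proteins, whose reads can be divided among near-identical pseudogenes, so these values are uncertain. Kpna2, a nuclear import receptor gene, lay at 31.7 in Vav-Cre 1 and 2.54 in Vav-Cre 2, with 39.5 to 46.3 CPM in Mx1-Cre, and Psma8, a proteasome subunit gene, at 15.5 and 0.310 with 22.4 to 30.2. AI506816 lay at 43.7 and 0.682 CPM in Vav-Cre and at 1.14, 38.3 and 40.0 in Mx1-Cre, and it was also split in wild type, at 66.3, 66.8 and 1.24. Lbh lay at 22.2 CPM in Mx1-Cre 2 and at 2.38 and 2.20 in the others, with 39.5 and 28.6 in Vav-Cre. BC018473, chosen after its values were seen, was not called (log2 -11.23, adjusted p = 0.148): it lay at 609 and 249 CPM in Mx1-Cre 2 and 3, at 0.0926 in Mx1-Cre 1, at 0.140 and 0.0930 in Vav-Cre and at 208 to 338 in wild type. For Lbh, Kpna2 and Psma8 the lines did not overlap in spite of this split, and for Rpl29, Rps3a and AI506816 they did.

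**Figure D5:**
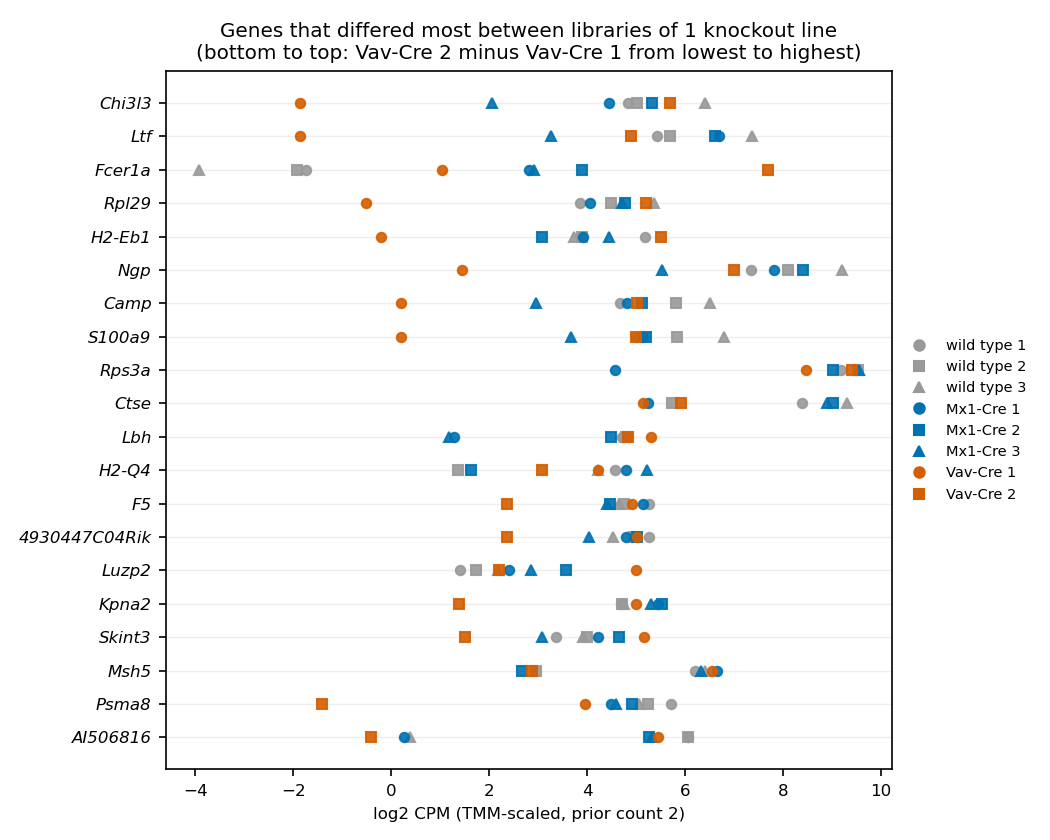
Genes with the largest differences between libraries of 1 knockout line, by library (horizontal axis, log2 CPM with a prior count of 2, 1 row per gene, colours and markers as for the called genes). Vav-Cre 1 is lowest in the upper rows, such as Chi3l3 and Ltf, Vav-Cre 2 is lowest for Psma8 and Kpna2, and Msh5 and H2-Q4 are low in the square markers of all groups.

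Part of this split followed the library number across groups. Msh5, a mismatch repair family gene known from meiosis, lay at 7.71, 6.31 and 7.22 CPM in the libraries numbered 2 of wild type, Mx1-Cre and Vav-Cre and at 73.4 to 99.9 in the other 5 libraries. With the search set after seeing this, 7 of 11294 genes with a mean log2 CPM of at least 1 were more than 3-fold lower in all libraries numbered 2 than in every other library, and 0 were higher. For numbers 1 and 3 the counts were 0 in both directions. The 7 genes were Msh5, Sapcd1, Gm11127, Gm7030, H2-Ea-ps, H2-Q2 and H2-Q10, the last at 0.0985, 0.363 and 0.0310 CPM against 8.43 to 18.3. In the RefSeq annotation (GRCm38.p6) 6 of them were placed, all on 1 chromosome in a run of 107 annotated genes that holds 15 named H2-, the mouse major histocompatibility genes. Across all genes, deviations of same-numbered Vav-Cre and Mx1-Cre libraries had r = -0.071 and -0.036. What the number stands for is not in the labels.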

How the data were processed

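RNA-seq libraries of sorted mouse hematopoietic stem cells were made with SMARTer Ultra Low Input and NEBNext kits, per the labels' protocols, and are unstranded. The deposited table holds raw read counts per gene. The CPM table, made by the authors, was used only for a limma-trend alternative on log2(CPM + 1). TopHat, SAMtools, HTSeq, edgeR and the build mm9 are named, without versions, in the submitters' processing notes, while for the gene annotation and strand setting the sources used here give nothing. Of 23358 genes, 5996 were at 0 in all libraries, and 14086 passed edgeR's filterByExpr (minimum count 10, minimum total 15).

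Differences were fitted with edgeR 4.0.16 (quasi-likelihood, TMM scaling, group only, all 8 libraries, R 4.3.3) as Vav-Cre minus Mx1-Cre, with Benjamini-Hochberg adjustment over all tested genes and a call at an adjusted p below 0.05. Wild type libraries enter the fit for the shared estimate of spread. Errors on log2 differences are SE with n = 2 and 3 libraries. Where a group had no count, the fold is a lower bound against 3 counts per library. Levels within lists are log2 CPM with a prior count of 2. Precision of a level rests on total counts of 28689765 to 33202926 per library. Alternatives were DESeq2 1.42.0, limma 3.58.1, other scalings and filters, a replicate block and each library left out.

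Named genes were those called with a mean log2 CPM of at least 3 and no overlap between lines, up to 15 per direction and filled to 8, up to 4 members of each of 30 lists by p, a fixed set, and the 8 genes that differed most within a line in each way. The members and lists were chosen with earlier results of these data known. Some genes are not reported here. Scripts were tested on simulated data. Figures used Python 3.11.15 and matplotlib 3.10.9.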

Additional observations from a re-analysis of the deposited data

Results flagged for a closer look

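The 24 called genes are also those whose change against wild type differed between the lines, since with shared wild type libraries the difference of the changes (log2, Vav-Cre minus Mx1-Cre, edgeR contrast) is the direct comparison itself. Of these, 22 are listed. It was positive for Fgd5 (2.43), Entpd1 (2.23), Gda (1.93), Rec8 (1.81), Serpinf1 (1.79), Fzd6 (1.31), Arhgap26 (1.29), Mylip (1.18), Trim30b (1.14), Pik3r1 (1.02), Slamf1 (0.99), 2810468N07Rik (2.85) and 2010015L04Rik (3.40). The fitted values of Meiob (10.56) and Slc19a3 (8.25) depend on the prior count, since the Mx1-Cre libraries had no count. It was negative for Add2 (-5.83), Kcnj5 (-5.35), Slc38a5 (-5.11), Col5a1 (-4.08), Atp1b2 (-3.82), Mtfr2 (-1.88) and Ccdc40 (-1.51).

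Against wild type, Fgd5 lay at -4.22 ± 0.30 in Mx1-Cre and -1.79 ± 0.31 in Vav-Cre (log2, SE), and Entpd1 at -2.55 ± 0.30 and -0.32 ± 0.32. Rec8 lay at -0.48 ± 0.21 and 1.33 ± 0.23, Slamf1 at -0.31 ± 0.13 and 0.68 ± 0.14, and Atp1b2 at 1.29 ± 0.35 and -2.54 ± 0.44.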

How the results depend on the processing

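The number of genes called between the lines, 24 (16 higher and 8 lower in Vav-Cre), was 468 (249 and 219) with DESeq2, 10 (8 and 2) with limma-voom and quality weights, 81 (53 and 28) without a filter, 3 (0 and 3) with only the 5 knockout libraries and 76 (47 and 29) at an adjusted p below 0.1. Upper quartile scaling gave 25 higher, and moved the share of higher calls from 66.7% to 75.8%, against 53.2% with DESeq2. With single libraries left out the total ranged from 3 to 412, the higher from 0 to 203 and the lower from 3 to 209. Of the 24 genes, 3 were called in every such fit, 0 under every other alternative, and 0 reversed. With a replicate block 9 genes were called (3 higher). The labels do not say what a library number marks. Across all genes same-numbered libraries deviated with r of -0.071 and -0.036 between Vav-Cre and Mx1-Cre, 0.008 and -0.014 between wild type and Vav-Cre, and -0.002, 0.001 and 0.129 between wild type and Mx1-Cre. The 2 Vav-Cre libraries deviate from their mean as mirror images, so these values are not independent. Nor can an r over all genes settle whether a number marks few genes, such as the 7 low in all libraries numbered 2. The numbers were not used as pairs.

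Of the single genes, 12 that were not called reversed in some setting (log2, Vav-Cre minus Mx1-Cre). Without Vav-Cre 2 these were Ciita (-1.016, and 1.602 without Vav-Cre 1), Elane (-0.670 and 0.907), Fcer1a (-2.292 and 4.412), Gzmb (-6.427 and 4.172), Zfp36 (-0.027 and 1.048), Zmat3 (-0.414 and 0.491), Cpa3 (-0.454 and 0.358) and Flt3 (-0.151, and 0.824 without Mx1-Cre 2). Without Vav-Cre 1 they were H2-Ab1 (0.167, and -1.635 without Vav-Cre 2) and Irf7 (-0.112 and 0.919). Without Mx1-Cre 2, Elane was -0.130, Zmat3 -0.041 and Mcl1 -0.004 (0.401 without Vav-Cre 1). Without Mx1-Cre 3, Kit was -0.175 (0.452 without Mx1-Cre 2) and Cpa3 -0.094, and without Mx1-Cre 1 Cpa3 was -0.093. Cpa3 was -0.007 with DESeq2 and with its size factors and -0.043 with the block, Kit -0.051 with the block, and Zmat3 -0.043 with limma-voom. The cause was not tested. With 2 and 3 libraries per line, and for genes of few counts, small differences were not detectable.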

Other observations

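Germline and meiosis genes, a list put together after Rec8 and Meiob had been seen, had 26 of 42 members tested. Rec8 and Meiob rose and 0 fell, 15 had a positive fold, and the median difference was 0.24 beside 0.01 over all tested genes. The list's median level was 0.54 in Vav-Cre 1, -0.29 in Vav-Cre 2 and -0.34 to 0.11 in Mx1-Cre. Sycp1, a gene of the synaptonemal complex, had no count in Mx1-Cre and 108 and 45 counts in Vav-Cre (at least 25.2-fold, adjusted p = 0.0748 in edgeR).

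Some genes with an adjusted p below 0.1 lay close together in the RefSeq gene order (GRCm38.p6). Of 72 such genes placed, neighbours at most 10 tested genes apart formed 6 stretches. In the stretch from Gata1 to Slc38a5, 5 of 11 tested genes (Gata1, Suv39h1, Ebp, Ftsj1 and Slc38a5) lay below Mx1-Cre in both Vav-Cre libraries and 0 above. Of all tested genes 12% lay below and 13.8% above. The median difference in this stretch was 0.02. The stretch with Ccdc40, Slc26a11 and 2810410L24Rik held 12 tested genes, 2 above and 3 below. The other stretches paired Serpine2 with Slc19a3, Mtfr2 with H60b, Mettl16 with Serpinf1 and Meiob with Cramp1l. The genes that define a stretch, such as Gata1 and Slc38a5, were picked for their adjusted p and are included in its counts. Whether 6 stretches are more than unrelated genes would form was not tested. These were found by looking, and no cause was tested.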
